A study of Mus musculus with 6 samples.

Results

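The *Dlx* genes encode homeodomain transcription factors, and all 6 members of the mouse family, *Dlx1* to *Dlx6*, were taken by their symbols from a table of 24421 gene symbols. Of these, 5 had enough reads to be tested among 15584 genes, and *Dlx4* did not. RNAseq compared whole heads of E9.0 embryos, from 3 pools of WT (*Snrpb*+/+) and 3 pools of *Snrpb* ncc+/- embryos, and each pool held 2 heads of embryos matched for somite number and taken from different litters. The mutants carry 1 conditional *Snrpb* allele and the Wnt1-Cre2 transgene, so that *Snrpb*, which encodes core proteins of the spliceosome, becomes heterozygous in the neural tube and the neural crest, while the surface ectoderm, mesoderm and endoderm of the head keep both copies. The labels give the strain as both C57BL/6 and CD1 for every library, and do not say whether the WT embryos carried the transgene. RNA was depleted of ribosomal RNA, and the total count of a library lay between 36378803 and 58946111 in WT and between 42398206 and 74909774 in mutants.

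*Dlx* genes lie in the genome as pairs that are transcribed towards each other, and the members of a pair share enhancers and much of their expression. In the pharyngeal arches their expression is nested: *Dlx1* and *Dlx2* are used along the whole dorsoventral axis of the crest mesenchyme, *Dlx5* and *Dlx6* in its ventral part, where they act downstream of endothelin 1 signalling and give the lower jaw its identity, and *Dlx3* and *Dlx4* closest to the ventral tip. Outside the arches, *Dlx1*, *Dlx2*, *Dlx5* and *Dlx6* act in GABAergic neurons of the forebrain, and *Dlx3* and *Dlx5* in ectoderm and in the otic and olfactory placodes. Wnt1-Cre2 is active in the crest but not in the ectoderm or placodes, so that reads of a *Dlx* gene from whole heads come from cells with either genotype of *Snrpb*.

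*Snrpb* itself had 430, 438 and 414 CPM (counts scaled to a common library size with edgeR's TMM factors) in WT and 436, 412 and 430 CPM in mutants. The groups overlapped, with a log2 fold change of -0.0036 (SE 0.039, adjusted *P* = 0.990, edgeR's quasi-likelihood test with Benjamini-Hochberg adjustment), so the genotypes rest on the labels and not on the count of this gene. WT replicate 1 stood apart from the other 5 libraries in markers of tissues near the head, and in some markers of the head itself. The summed level of 10 cardiac muscle markers was 14.4 CPM there against 43.6 to 160.9 CPM in the others, with 9 of the 10 lowest in that library, and that of 8 visceral endoderm markers was 35.9 CPM against 8.09 to 10.5 CPM, with all 8 highest in it. Of 8 posterior *Hox* genes, all had under 10 reads in every library. Markers of the head were present. Summed levels of 10 neural tube markers were 307.1 to 384.0 CPM in WT and 301.0 to 332.7 CPM in mutants. For 13 neural crest markers they were 471.0 to 533.4 CPM and 458.6 to 500.1 CPM. WT replicate 1 had the highest neural tube sum, with 7 of the 10 markers highest in it. Its 12 surface ectoderm markers summed to 406.9 CPM, against 539.7 to 549.3 CPM in the other 5 libraries. Of these 12, 8 were lowest in it and 1, *Grhl3*, was highest, while *Trp63*, at 5.11 CPM, lay within the range of the others. Its neural crest sum lay within the range of the others, but single markers shifted both ways. Of the 13, 4 were lowest in it (*Sox10*, *Twist1*, *Prrx2* and *Ets1*) and 2 were highest (*Pax3* and *Zic1*).

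The 6 genes are similar in the homeobox, which encodes the part of the protein that binds DNA. The last 45 bases of the homeobox, which encode most of its recognition helix, lie in 1 exon in each member and are shown because reads in this part are the ones that members could share. Capitals mark the bases that differ from *Dlx5*, read 5′ to 3′ on the coding strand (GRCm38, Gencode M21).
*Dlx5*, chr6:6878441-6878485, minus strand: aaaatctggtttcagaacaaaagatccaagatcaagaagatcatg
*Dlx6*, chr6:6867044-6867088, plus strand: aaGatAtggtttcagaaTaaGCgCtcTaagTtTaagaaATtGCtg
*Dlx1*, chr2:71532267-71532311, plus strand: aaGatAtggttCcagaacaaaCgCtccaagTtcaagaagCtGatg
*Dlx2*, chr2:71544877-71544921, minus strand: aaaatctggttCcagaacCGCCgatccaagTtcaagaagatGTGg
*Dlx3*, chr11:95123412-95123456, plus strand: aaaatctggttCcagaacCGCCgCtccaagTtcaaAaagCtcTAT
*Dlx4*, chr11:95141422-95141466, minus strand: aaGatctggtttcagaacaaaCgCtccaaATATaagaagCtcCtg
In these stretches the other members differed from *Dlx5* at 8 (*Dlx1*) to 13 (*Dlx6*) bases. Over the whole homeobox of 180 bases, identity between members lay between 66.1% (*Dlx3* and *Dlx6*) and 81.7% (*Dlx2* and *Dlx3*). The genes of 1 pair were not the most alike: identity was 73.9% for *Dlx1* and *Dlx2*, 73.3% for *Dlx5* and *Dlx6* and 71.7% for *Dlx3* and *Dlx4*. The longest run of bases that any 2 members share exactly in their annotated transcripts was 23, against reads of 100 bases, so that no full-length read could match 2 members without a mismatch.

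*Dlx1* and *Dlx2* lie on chromosome 2 at 71528113 to 71533981 (plus strand) and 71543408 to 71546754 (minus strand), with 9426 bases between their ends. *Dlx6* and *Dlx5* lie on chromosome 6 at 6863334 to 6868568 (plus strand) and 6877805 to 6882085 (minus strand), 9236 bases apart. *Dlx3* and *Dlx4*, on chromosome 11 at 95120119 to 95125296 (plus strand) and 95140447 to 95146263 (minus strand), are 15150 bases apart. Antisense genes on the minus strand cover the plus-strand gene of 2 pairs. *Dlx1as* spans *Dlx1*, *Dlx6os1* spans *Dlx6*, and *Dlx6os2* lies within *Dlx6*, while none of them reaches *Dlx2* or *Dlx5*. These 3 are the only other symbols of the table that begin with Dlx.

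**Figure D1:**
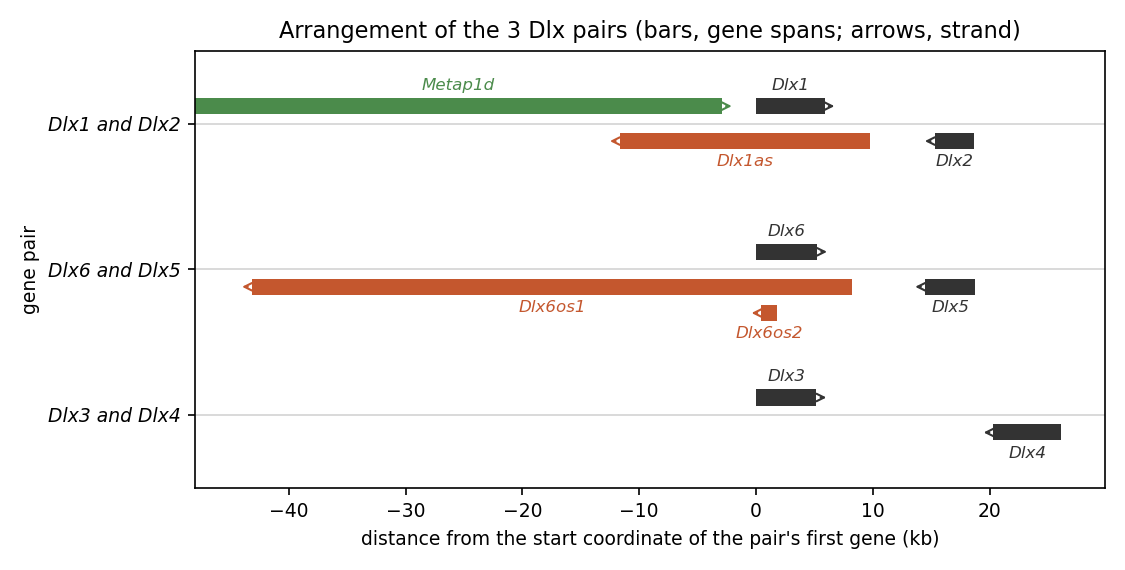
Gene spans at the 3 *Dlx* pairs, as distance in kb from the start coordinate of the first gene of each pair, with plus-strand genes above each line and minus-strand genes below it. Black bars are *Dlx* genes, orange bars are antisense genes and the green bar is *Metap1d*, which runs beyond the left edge. Each pair is transcribed towards the gap between its genes, and *Dlx1as* and *Dlx6os1* span the whole of *Dlx1* and of *Dlx6*.

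No *Dlx* gene passed the test of mutant against WT heads. With edgeR's quasi-likelihood test, 0 of the 5 tested members passed an adjusted *P* of 0.05 (all genes, 0.00642%), and 0 passed an unadjusted *P* of 0.05 (all genes, 8.43%, with 4.34% higher and 4.09% lower in mutants). Without the filter on low counts, 0 of the 6 members passed an adjusted *P* of 0.05 (all genes, 0.0522%) and 0 an unadjusted one (all genes, 7.12%). DESeq2 called 0 of the 5 members at an adjusted *P* of 0.05 (all genes, 0.651%). The groups overlapped in all 6 members, while 15.2% of all tested genes did not overlap. Of the 5 members, 3 had a log2 fold change above 0 and 2 below it (all genes, 50.2% above 0), and their median was 0.0096, beside 0.00041 for all tested genes. In whole heads, fewer cells that express a gene and less RNA of it per cell cannot be told apart, and the samples are pools of embryos from different litters, so *P*-values measure the spread between pools.

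*Dlx5*, which with *Dlx6* sets the identity of the lower jaw, had 5.71, 4.48 and 6.22 CPM in WT and 4.40, 5.16 and 6.30 CPM in mutants. The lowest and the highest library were both mutants, and WT lay between them. In the edgeR fit its log2 fold change was -0.036 (SE 0.17, 95% interval -0.41 to 0.34, adjusted *P* = 0.970), which as a fold is 0.976 with an interval of 0.751 to 1.27.

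*Dlx6* had 4.20, 2.79 and 5.05 CPM in WT and 3.81, 4.18 and 4.00 CPM in mutants. All 3 mutants lay inside the range of WT, which spread 1.81-fold from its lowest to its highest library, against 1.10-fold in mutants. The log2 fold change was 0.0096 (SE 0.20, 95% interval -0.44 to 0.46, adjusted *P* = 0.995, edgeR). Reads of *Dlx6* per read of *Dlx5* were 0.736, 0.624 and 0.813 in the WT pools and 0.866, 0.811 and 0.635 in the mutant pools, so the balance of the ventral pair overlapped between the groups as well.

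*Dlx2*, which marks migrating crest and the mesenchyme of the arches, was the member with the most reads, with 6.62, 6.52 and 9.00 CPM in WT and 7.25, 6.55 and 8.62 CPM in mutants. In both groups replicate 3 was the highest library, and the ranges overlapped almost fully. Mutants against WT gave a log2 fold change of 0.022 (SE 0.15, 95% interval -0.33 to 0.37, adjusted *P* = 0.982, edgeR).

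Its partner *Dlx1* had 1.81, 2.47 and 3.24 CPM in WT and 2.44, 2.46 and 3.05 CPM in mutants. The lowest and highest values were both WT, in replicates 1 and 3. Its log2 fold change was 0.083 (SE 0.21, 95% interval -0.39 to 0.56, adjusted *P* = 0.933, edgeR). Reads of *Dlx1* per read of *Dlx2* were 0.338 ± 0.0560 in WT and 0.355 ± 0.0195 in mutants (SD, n = 3), and these ranges overlapped too.

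*Dlx3*, which acts in ectoderm, the otic placode and the ventral arch, had 5.05, 3.90 and 4.08 CPM in WT and 3.84, 3.83 and 4.02 CPM in mutants. It had the largest absolute log2 fold change of the 5 tested members, at -0.15 (SE 0.13, 95% interval -0.45 to 0.14, adjusted *P* = 0.782, edgeR), and 72.6% of all tested genes had one as small or smaller. Mutant replicate 3 lay above WT replicate 2, so the groups overlapped. The highest value was that of WT replicate 1, the library that stood apart in markers of several tissues. Without it the log2 fold change of *Dlx3* was -0.037 (SE 0.12, adjusted *P* = 0.949, edgeR).

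Without WT replicate 1, the log2 fold changes of the other members were -0.094 for *Dlx1*, -0.046 for *Dlx2*, 0.00097 for *Dlx5* and 0.053 for *Dlx6*, each within its SE of 0. *Dlx1*, *Dlx2* and *Dlx5* thus changed direction when that library was left out. The part of tissue makeup in these values was not tested.

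*Dlx4*, the partner of *Dlx3*, was at the limit of detection, with 8, 9 and 5 reads in WT and 6, 9 and 8 reads in mutants. Summed over a group this was 22 reads in WT, or 0.166 CPM of the summed libraries (exact Poisson 95% interval 0.104 to 0.251), and 23 reads in mutants, or 0.125 CPM (0.0793 to 0.188), where the intervals cover counting error only. The intervals overlapped, and a difference was not detectable at this depth. In a fit without the filter on low counts, *Dlx4* had a log2 fold change of -0.41 (SE 0.45, adjusted *P* = 0.849, edgeR).

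**Figure D2:**
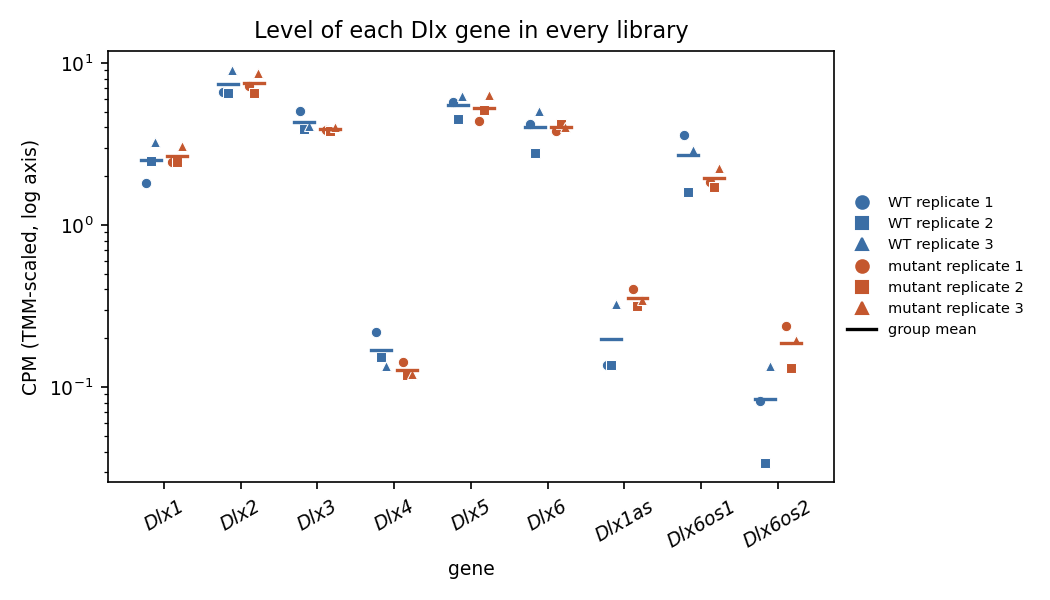
CPM (log axis) of each *Dlx* gene and each antisense gene, with 1 point per library, circles, squares and triangles for replicates 1, 2 and 3, blue for WT, orange for mutants, and a line at the group mean. In all 9 genes the WT and mutant points overlap; *Dlx2* is highest and *Dlx4*, *Dlx1as* and *Dlx6os2* lie below 1 CPM.

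The spread between the libraries set how small a change could be seen. The 95% intervals of the 5 tested members reached from -0.45 to 0.56 on the log2 scale, and a change inside them could not be told from 0. The biological coefficient of variation from edgeR, which measures the spread between libraries beyond counting error, was 0.178 for *Dlx1*, 0.139 for *Dlx2*, 0.149 for *Dlx5* and 0.174 for *Dlx6*. Among genes of like level, between 83.5% and 87.0% had one as low or lower, so these 4 varied more than most such genes. *Dlx3*, at 0.116, did not stand out, with 37.5% of genes of like level at or below it. *Dlx3* and *Dlx6* had similar numbers of reads, 151 to 291 and 153 to 318 per library.

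For levels, reads were divided by exon length, which makes genes comparable. In WT, *Dlx2* had 2.59 ± 0.492 CPM per kb (SD, n = 3) and *Dlx5* had 2.42 ± 0.395. *Dlx6* followed with 1.69 ± 0.481 and *Dlx3* with 1.67 ± 0.238, while *Dlx1* had 0.465 ± 0.133 and *Dlx4* 0.0518 ± 0.0136. *Dlx2* and *Dlx5* did not differ beyond their spread, nor did *Dlx6* and *Dlx3*, whereas *Dlx1* and *Dlx4* lay below all others in all 6 libraries. In mutants the levels were 2.62 ± 0.369 for *Dlx2*, 2.34 ± 0.422 for *Dlx5*, 1.68 ± 0.0781 for *Dlx6*, 1.49 ± 0.0408 for *Dlx3*, 0.491 ± 0.0647 for *Dlx1* and 0.0388 ± 0.0040 for *Dlx4*.

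The order *Dlx2*, *Dlx5*, *Dlx6*, *Dlx3*, *Dlx1*, *Dlx4* held in WT replicate 3 and in all 3 mutants. In WT replicates 1 and 2 *Dlx3* was above *Dlx6*, and in WT replicate 1 *Dlx5* was also above *Dlx2*. *Dlx2* made up 25.9% to 31.5% of the summed level of the family over the 6 libraries, *Dlx5* 24.2% to 28.9%, *Dlx6* 15.8% to 21.2%, *Dlx3* 15.3% to 21.6%, *Dlx1* 3.75% to 6.15% and *Dlx4* 0.382% to 0.751%. These genes were of modest abundance in the head as a whole: 41.1% of tested genes had a level per kb as low as that of *Dlx2* or lower, and 19.7% one as low as that of *Dlx1*. Reads of all 6 members together were 23.6, 20.3 and 27.7 CPM in WT and 21.9, 22.3 and 26.1 CPM in mutants.

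**Figure D3:**
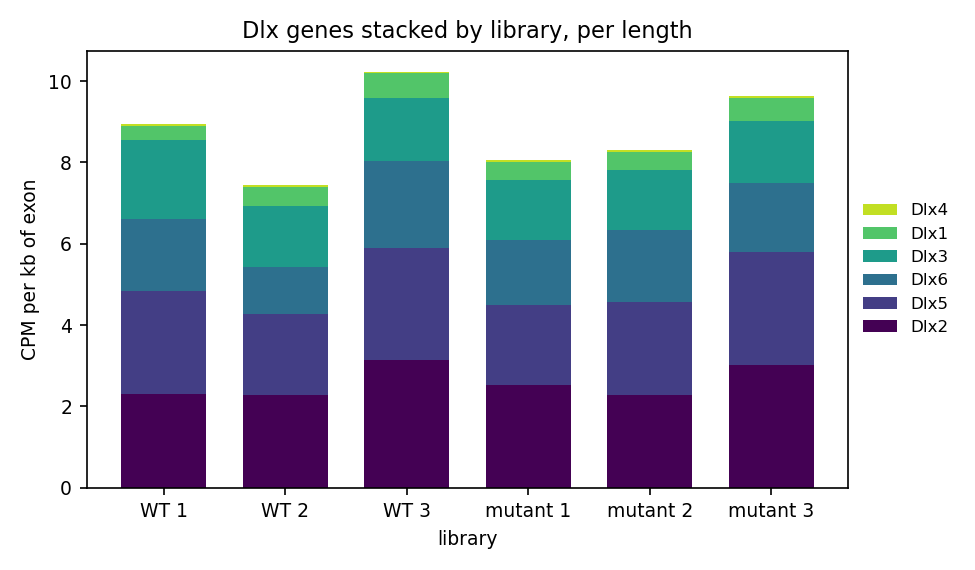
Level per kb of exon of the 6 *Dlx* genes, stacked for each of the 6 libraries. The height of a bar is the summed level of the family; WT replicate 2 is lowest and WT replicate 3 highest, and all 3 mutants lie between them.

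The antisense genes did not pass the test either. *Dlx6os1*, also known as *Evf2*, is transcribed from the *Dlx6* and *Dlx5* locus and acts on the enhancers between these genes in the forebrain. It had 3.57, 1.601 and 2.92 CPM in WT and 1.85, 1.71 and 2.26 CPM in mutants. The lowest and the highest library were both WT, and the mutants lay between them. It had a log2 fold change of -0.45 (SE 0.28, 95% interval -1.10 to 0.19, adjusted *P* = 0.693, edgeR), and it was -0.19 without WT replicate 1 and -0.74 without WT replicate 2. In the last of these fits its unadjusted *P* was 0.0037 and its adjusted *P* 0.286, the lowest of its 12 alternative fits.

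*Dlx1as*, which spans *Dlx1*, had 5, 8 and 12 reads in WT and 17, 24 and 23 reads in mutants, or 0.137, 0.136 and 0.324 CPM and 0.403, 0.316 and 0.346 CPM. Mutant replicate 2 lay below WT replicate 3, and the other mutants lay above all WT. In mutants against WT the log2 fold change was 0.86 (SE 0.38, 95% interval -0.015 to 1.73, unadjusted *P* = 0.0532, adjusted *P* = 0.598, edgeR), and DESeq2 gave an unadjusted *P* of 0.154. When 1 library was left out it lay between 0.59 (unadjusted *P* = 0.200, without WT replicate 2) and 1.34 (unadjusted *P* = 0.0075, adjusted *P* = 0.703, without WT replicate 3), and the adjusted *P* of edgeR was 0.592 or higher in every alternative. Summed over a group, 25 reads in WT gave 0.188 CPM of the summed libraries (exact Poisson 95% interval 0.122 to 0.278), and 64 reads in mutants gave 0.348 (0.268 to 0.445). These intervals overlap, and they cover counting error only, not the spread between pools. *Dlx6os2* was not tested, with 3, 2 and 5 reads in WT and 10, 10 and 13 in mutants, and without the filter on low counts its log2 fold change was 1.21 (SE 0.57, unadjusted *P* = 0.0516, edgeR's quasi-likelihood test), which missed the threshold before any adjustment.

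By its own CPM, no antisense gene separated the groups. As reads per read of the sense gene in the same library, the ratios did not overlap between the groups. Reads of *Dlx6os1* per read of *Dlx6* were 0.850, 0.573 and 0.578 in the WT pools and 0.484, 0.409 and 0.564 in the mutant pools. Reads of *Dlx1as* per read of *Dlx1* were 0.0758, 0.0552 and 0.1 in the WT pools and 0.165, 0.128 and 0.113 in the mutant pools. Reads of *Dlx6os2* per read of *Dlx6* were 0.0196, 0.0122 and 0.0267 in the WT pools and 0.0621, 0.0314 and 0.0489 in the mutant pools. The first ratio was thus lower in every mutant and the other two higher, by a gap of 0.573 to 0.564 at its narrowest for *Dlx6os1*. These 3 were singled out of 8 ratios after their values had been seen and were not tested. The share of such ratios over all genes was not computed, while 15.2% of single tested genes did not overlap in CPM. *Dlx6os1* and *Dlx6os2* were both divided by *Dlx6*, and *Dlx6os2* had only 2 to 13 reads per library.

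The library kit kept the strand of the RNA, but which strand setting the counting used is not given in the sources used here, so reads where the genes overlap cannot be assigned with certainty. *Dlx1* and *Dlx1as* share 335 exon bases, which is 6.21% of the exons of *Dlx1* and 20.6% of those of *Dlx1as*. *Dlx6* and *Dlx6os2* share 104, or 4.38% and 7.68%, and *Dlx6* and *Dlx6os1* share 0. *Dlx4* shares 79 exon bases, or 2.42%, with *Dlx4os*.

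**Figure D4:**
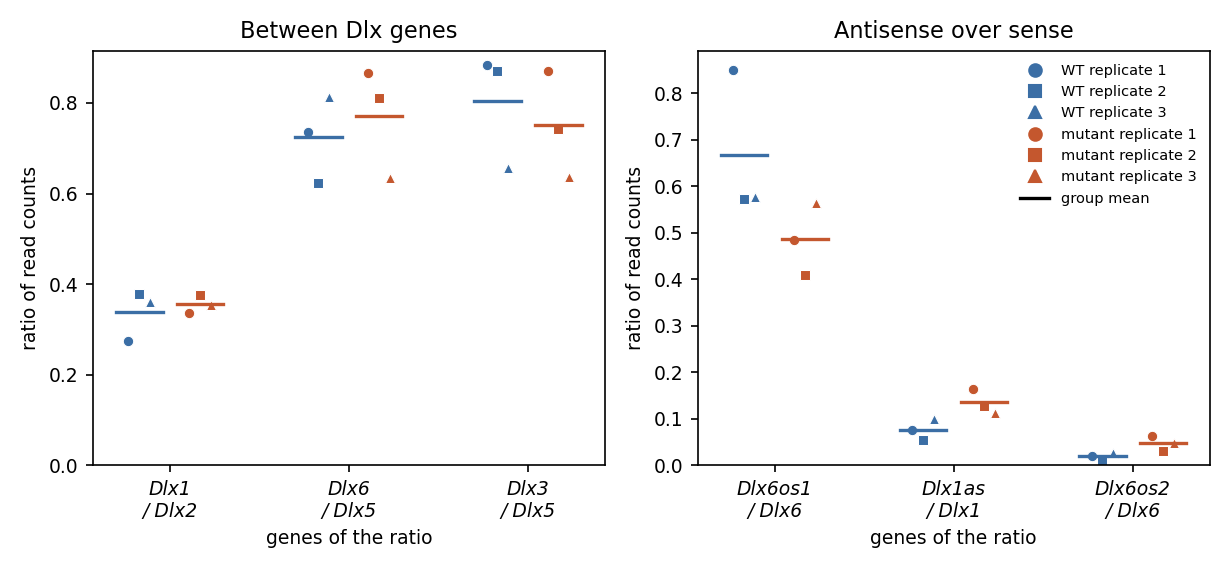
Ratio of read counts in each library, with 1 point per library, replicates by shape, WT in blue, mutants in orange, and lines at the group means. On the left, the ratios between *Dlx* genes overlap between the groups; on the right, the 3 antisense-to-sense ratios do not, and *Dlx6os1* over *Dlx6* is lower and the other ratios are higher in mutants.

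Genes that act with *Dlx* genes in the arches did not pass the test either. With edgeR, 0 genes passed an adjusted *P* of 0.05 in the endothelin 1 pathway (8 genes, all tested), among ventral arch genes (13, all tested) and among dorsal and maxillary arch genes (10, all tested), and DESeq2 called 0 in each. At an unadjusted *P* of 0.05 the counts were 0, 0 and 1 (all genes, 8.43%), and 1 of 10 is close to that background. The median log2 fold changes were -0.065 for the endothelin 1 pathway, -0.15 for ventral arch genes and -0.018 for dorsal and maxillary arch genes, and 1, 0 and 1 of their genes had groups that did not overlap (all genes, 15.2%).

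*Edn1*, the ligand that switches on *Dlx5* and *Dlx6* in the ventral arch, had 5.93, 8.51 and 7.54 CPM in WT and 8.88, 8.31 and 8.47 CPM in mutants. WT replicate 1 was the lowest library, and WT replicate 2 lay among the mutants. Its log2 fold change was 0.22 (SE 0.13, adjusted *P* = 0.683, edgeR), and 0.081 (SE 0.095) without WT replicate 1. Its receptor *Ednra* and the downstream factor *Mef2c* had log2 fold changes of -0.12 (SE 0.08) and 0.066 (SE 0.16), with overlapping groups.

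Downstream of *Dlx5* and *Dlx6*, *Hand2*, which represses them at the ventral tip, had a log2 fold change of 0.38 (SE 0.29, adjusted *P* = 0.754, edgeR), and *Hand1* one of -0.34 (SE 0.29). *Gsc*, *Gbx2*, *Msx1* and *Msx2* had log2 fold changes of 0.048, 0.054, -0.15 and -0.0096. In each of these 6 genes the groups overlapped. *Hand2* ranged from 2.39 CPM in WT replicate 1 to 6.21 CPM in mutant replicate 3, the libraries with the lowest and the highest summed level of cardiac muscle markers, and the heart also expresses *Hand2*. Without WT replicate 1 its log2 fold change was 0.14 (SE 0.22). The part of the heart in its value was not tested.

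Of the dorsal and maxillary genes, *Pou3f3* had 21.04 CPM in WT replicate 1 and 8.52 to 10.8 CPM in the other 5 libraries. Its log2 fold change was -0.53 (SE 0.35), and -0.066 (SE 0.13) without that library, while *Barx1* had one of -0.033 (SE 0.23), and both genes had overlapping groups. *Jag1*, a Notch ligand of the dorsal arch, was the gene at an unadjusted *P* under 0.05. It had 151.8, 153.1 and 146.8 CPM in WT and 164.0, 159.3 and 163.1 CPM in mutants, so that every mutant lay above every WT. The log2 fold change was 0.11 (SE 0.04, unadjusted *P* = 0.0192), and it did not pass the adjustment (adjusted *P* = 0.484, edgeR). When 1 library was left out, it lay between 0.088 and 0.12. The unadjusted *P* of edgeR was then above 0.05 without WT replicate 3 (0.0645), mutant replicate 1 (0.0567) or mutant replicate 3 (0.0760). It stayed under 0.05 without any of the other libraries.

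**Figure D5:**
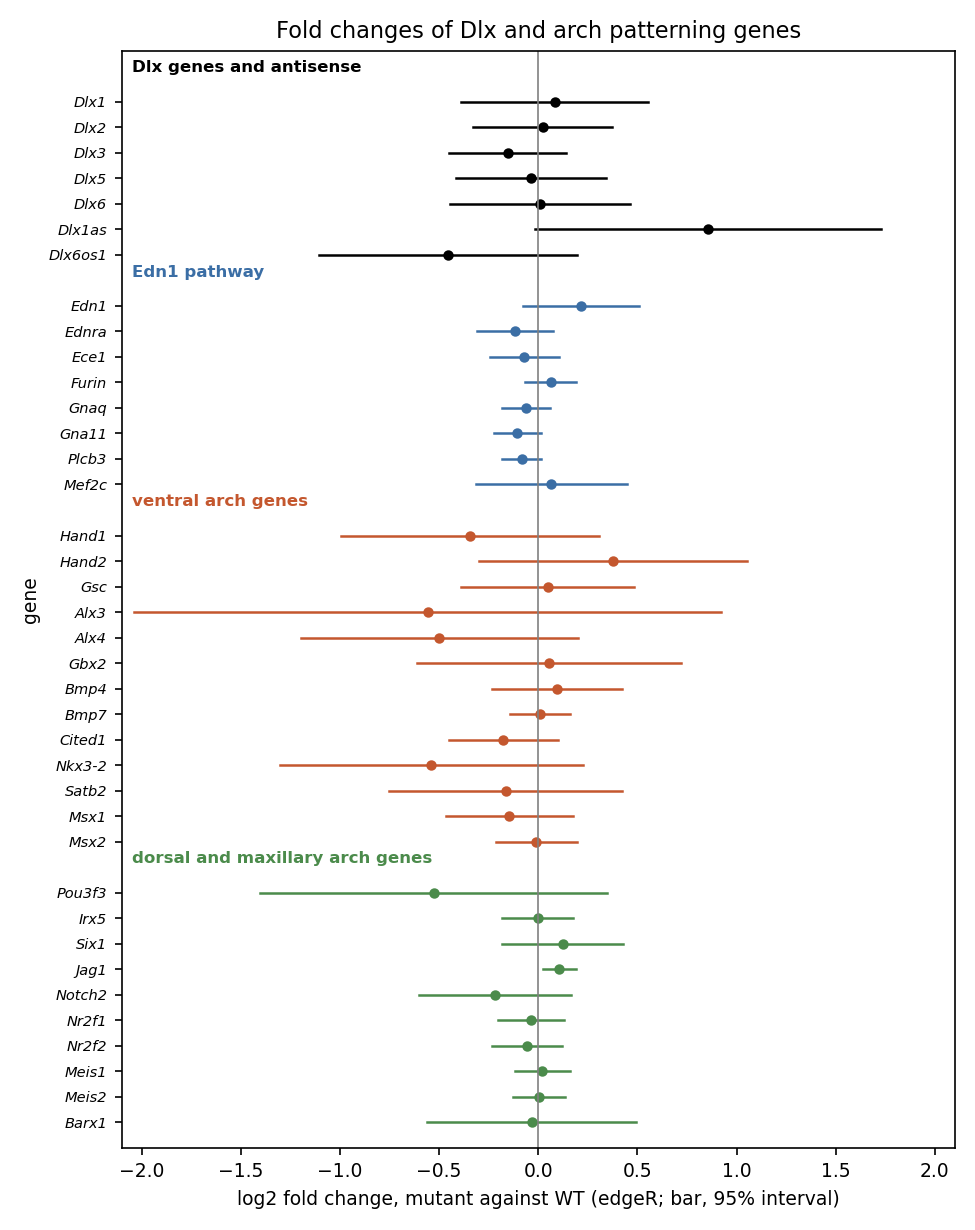
Log2 fold change, mutant against WT, of the tested *Dlx* and antisense genes (black), endothelin 1 pathway genes (blue), ventral arch genes (orange) and dorsal and maxillary arch genes (green); points are edgeR's fits and bars their 95% intervals. The interval of *Jag1* is the only one that leaves out 0, and those of the *Dlx* genes lie between -0.45 and 0.56.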

How the data were processed

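RNA of whole heads was sequenced in 3 WT and 3 *Snrpb* ncc+/- pools. Trimmed reads were mapped by the authors with STAR against mm10, and read counts for Gencode M2 genes were made, per the paper, with HTSeq, while the submitters' processing notes name featureCounts, so the counter is uncertain. The deposited values are unnormalized counts for each symbol, and the groups follow the labelled genotype. All pairs of libraries differed by more than sampling noise (chi-square divided by its degrees of freedom at least 9.74).

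Counts were normalized with TMM, filtered with filterByExpr and tested with edgeR's robust quasi-likelihood test (version 4.0.16, R version 4.3.3), two-sided, without covariates, with Benjamini-Hochberg adjustment over 15584 genes. SEs and intervals refer to log2 fold changes. An alternative was DESeq2 (version 1.42.0), which the study used, and simulated counts were used to check the scripts. Lengths, positions and sequences come from Gencode M21, to which 23376 of 24421 symbols matched by name, so lengths may differ from those the authors counted on. Genes of like level lie within 0.5 of a member's log2 CPM. Named genes were all symbols beginning with Dlx, *Snrpb*, and a fixed set from the lists of arch, forebrain and placode genes, of which some are not reported here. Values are also given for list genes at an unadjusted *P* under 0.05, and the neighbours of the pairs were added after their values had been seen. The members and lists were chosen with earlier results of these data known. Figures were drawn with matplotlib (version 3.10.9).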

Additional observations from a re-analysis of the deposited data

How the results depend on the processing

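The counts of *Dlx* genes at an adjusted and at an unadjusted *P* of 0.05 were 0 in the edgeR fit and in each of 12 alternatives: DESeq2, DESeq2 size factors, library sizes, no filter, a stricter filter (10 or more counts in each library), a replicate block, and each library left out in turn. Leaving out 1 library moved the log2 fold change between -0.094 and 0.30 for *Dlx1*, -0.10 and 0.19 for *Dlx2*, -0.23 and -0.037 for *Dlx3*, -0.19 and 0.073 for *Dlx5*, -0.21 and 0.21 for *Dlx6*, and -0.17 and 0.19 for their median. Only *Dlx3* kept its direction in all of these fits. The number of members whose groups did not overlap lay between 0 and 2: *Dlx3* and *Dlx6* without WT replicate 2, and *Dlx3*, the 1 such member, without mutant replicate 3. Of all tested genes, 29.4% and 24.0% did not overlap in these fits, and 22.4% to 29.4% in the fits without 1 library. Fits of *Edn1*, *Hand2* and *Pou3f3* under the alternatives were added after seeing the data. Leaving out 1 library moved their log2 fold changes between 0.081 and 0.34, 0.14 and 0.70, and -0.77 and -0.066. Their largest absolute values came without WT replicate 2, at an unadjusted *P* of 0.0265, 0.0251 and 0.0415 (edgeR's quasi-likelihood test). The adjusted *P* was 0.380, 0.380 and 0.416, and 1770 of 15548 genes passed an unadjusted *P* of 0.05 in that fit. The other 6 alternatives moved the median only between -0.019 and 0.022, and none of the 5 members of the main fit changed direction in them. The medians of DESeq2 (-0.019) and of the fit without filter (-0.012) are over 6 members, since *Dlx4* is included there, and not over the same 5. *Dlx1as* had no value under the stricter filter.

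Libraries with the same number in both groups were not shown to be paired, and these values do not settle it. Deviations of same-numbered libraries correlated at 0.17, 0.032 and 0.36, and those of unlike-numbered ones at -0.245 to 0.0875. WT replicate 2 correlated best with mutant replicate 1, but only at 0.0386 against 0.032. With the replicate block the median log2 fold change was 0.022, that of *Dlx6* was 0.039, and 1 gene of all was called, as without it.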

Other observations

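In the forebrain, *Dlx* genes act with *Gsx1*, *Gsx2*, *Gad1* and other genes of the GABAergic lineage. Of 10 such genes, 8 were tested, and 0 passed an adjusted *P* of 0.05 with edgeR (0 at an unadjusted *P* of 0.05, and 0 with DESeq2). *Gsx1*, one of the 2 that were not tested, had 3, 2 and 3 reads in WT and 0, 0 and 1 in mutants, groups that do not overlap but lie at or under the 3 reads that a count of 0 allows. Without the filter on low counts its unadjusted *P* was 0.0195 and its adjusted *P* 0.576 (edgeR), where 7.12% of all genes passed an unadjusted *P* of 0.05. *Gad1*, which makes GABA, was low, with 0.879, 0.528 and 0.514 CPM in WT and 0.639, 0.592 and 0.511 CPM in mutants. WT replicate 1 was the highest library and the groups overlapped. Of 12 genes of the otic and olfactory placodes, where *Dlx3* and *Dlx5* are used, 0 passed with either tool, 0 passed an unadjusted *P* of 0.05, and their median log2 fold change was 0.075. The summed level of 12 surface ectoderm markers was 406.9 CPM in WT replicate 1 and 539.7 to 549.3 CPM in the other 5 libraries. Of these markers, 8 were lowest in WT replicate 1, and 1, *Grhl3*, was highest in it, as was *Dlx3*. Primitive erythroid markers summed to 879.6 to 1494 CPM in WT and 889.8 to 1215 CPM in mutants, with *Hba-a1* at 0 in every library.

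The coding genes on both sides of the *Dlx1* and *Dlx2* pair passed an unadjusted *P* of 0.05 (all genes, 8.43%), while *Dlx1* and *Dlx2* did not. *Metap1d*, whose end lies 2918 bases before the start of *Dlx1* on the same strand, had 4.97, 5.52 and 5.30 CPM in WT and 6.68, 6.92 and 7.46 CPM in mutants. Every mutant was above every WT, with a log2 fold change of 0.41 (SE 0.10, unadjusted *P* = 0.00249, adjusted *P* = 0.384, edgeR). *Dlx1as* runs on the other strand across the end of *Metap1d* and shares 0 exon bases with it. *Itga6*, which lies 198861 bases beyond *Dlx2*, had 167.8, 160.2 and 167.8 CPM in WT and 143.2, 148.5 and 151.2 CPM in mutants. Every mutant was below every WT, with a log2 fold change of -0.16 (SE 0.040, unadjusted *P* = 0.0030, adjusted *P* = 0.420, edgeR). Neither passed the adjustment over all genes, and both were described after their values had been seen. Neighbours were the nearest coding genes of Gencode M21 whose names were also in the count table, so a nearer gene under another name would be missed. Of the 4 neighbours of the other pairs, *Sdhaf3* did not overlap between the groups (log2 fold change 0.11, unadjusted *P* = 0.283, edgeR's quasi-likelihood test). *Itga3*, *Tac4* and *Slc25a13* did, and *Slc25a13* lies 646160 bases from *Dlx6*. Groups thus did not overlap in 3 of the 6 neighbours (all genes, 15.2%).

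Over the 6 libraries, the genes whose log2 CPM was most like that of *Dlx2* were *Tmem44*, *Mef2d*, *Phf20*, *Rhoj* and *Gm4737* (Pearson's r 0.954 to 0.984), and those most like *Dlx5* were *Arfgef1*, *Fbn2*, *Enox1*, *Pcdhga11* and *Zfp871* (0.988 to 0.992). Among 10627 genes, 35 had an r over 0.9 with *Dlx2* and 181 with *Dlx5*. These values describe 6 libraries that differ in depth and in markers of several tissues, and no test was made.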
